A study of Mus musculus with 2 samples.

Results

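The genes described here are 32 mouse genes that act in the G2 phase and in mitosis, matched by symbol to the gene names of the count tables. All 32 were found among the 32285 genes of each table, and they lie on 13 chromosomes. The tables come from droplet 3′ single-cell RNA sequencing of immune cells of the spleen, with 1 library from a C57BL/6 WT spleen and 1 from a C57BL/6 spleen with an RPA1 conditional knockout (CKO). The protein RPA1 belongs to the complex that coats single-stranded DNA while it is copied or repaired. The labels give neither the Cre driver, the deleted exons, the age, the sex nor the number of animals behind a library. With 1 library per genotype there is no test between genotypes, genotype and library cannot be told apart, and every interval below is an exact 95% interval that covers counting error only.

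A cell that divides copies its DNA in S phase, checks and prepares in G2, and separates the copies in mitosis. Cyclin B and Cdk1 drive entry into mitosis, Aurora and Polo kinases build and correct the spindle, kinetochores tie chromosomes to microtubules, and the anaphase-promoting complex ends the process by marking cyclins and securin for destruction. Transcripts of these genes are low in resting cells and accumulate from S phase to mitosis. Most lymphocytes of an unchallenged spleen are resting, while activated T cells, germinal centre B cells and precursors of blood cells divide there.

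The libraries held 13291 WT and 12958 CKO barcodes with 84240951 and 76910129 unique molecular identifiers (UMIs, 1 per captured RNA molecule). Filters on gene number and mitochondrial share kept 12679 and 12610 cells, with medians of 5520 and 4690 UMIs, and 36 barcode strings occurred in both libraries. Each cell was placed in a class from its own marker genes, and 635 WT and 612 CKO cells that carried markers of 2 lineages were kept out of the classes. T-gated cells numbered 3680 in WT and 772 in CKO, NK-gated cells 406 and 937, and B-gated cells 7436 and 9737. Rpa1, the targeted gene, stood at 43.2 WT and 33.8 CKO CPM (UMIs of a gene divided by all UMIs of the cells summed, scaled to counts per 1e6) in T-gated cells, a CKO over WT ratio of 0.782 (0.661 to 0.921). In B-gated cells its ratio was 0.958 and in NK-gated cells 0.917, both with intervals that included 1. A 3′ tag outside the deleted exons would not report the deletion, so these values do not check the genotype.

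Many genes of late cell division carry CCAAT boxes, bound by NF-Y, and a cell cycle homology region of the letters TTTGAA or TTCGAA in their promoters. RefSeq windows (GRCm38.p6) of the 250 bases before the start site were at hand for 26 of the 32 genes, in 27 windows. Aurkb, Ccna2, Esco2, Kif20a, Spc24 and Tpx2 had no entry. On either strand, TTTGAA or TTCGAA occurred in 40.7% of the 27 windows and in 17.1% of all 32851 windows of the same length. CCAAT occurred in 77.8% against 33.8%, at 2 or more places in 51.9% against 10.1%, and both motifs together in 37.0% against 6.02%. A match is a run of letters and no evidence of binding, and some windows overlap exons of their own or a neighbouring gene.

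Below, 5 of these stretches are shown without exonic bases, read 5′ to 3′ in the direction of the gene, with both motifs in capitals on whichever strand they lie. Top2a, Ccnb2, Cdc20 and Ube2c were chosen for their weight in the results that follow, and Cenpa because its counts lay mostly outside the cells that carried the other transcripts. They are chr11:99024190-99024439 on the minus strand for Top2a, chr9:70421555-70421804 on the minus strand for Ccnb2, chr4:118437353-118437593 on the minus strand for Cdc20, chr2:164769679-164769897 on the plus strand for Ube2c and chr5:30666636-30666776 on the plus strand for Cenpa.
Top2a: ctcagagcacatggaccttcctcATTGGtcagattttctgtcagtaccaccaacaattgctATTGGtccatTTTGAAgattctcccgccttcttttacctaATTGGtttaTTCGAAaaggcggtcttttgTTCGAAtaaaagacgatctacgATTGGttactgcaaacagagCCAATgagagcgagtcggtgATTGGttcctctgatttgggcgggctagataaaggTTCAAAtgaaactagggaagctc
Ccnb2: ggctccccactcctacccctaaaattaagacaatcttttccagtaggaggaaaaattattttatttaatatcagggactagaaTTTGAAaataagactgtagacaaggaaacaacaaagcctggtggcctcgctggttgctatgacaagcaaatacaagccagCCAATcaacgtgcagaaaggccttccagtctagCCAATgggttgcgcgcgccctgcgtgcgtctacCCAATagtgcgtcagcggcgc
Cdc20: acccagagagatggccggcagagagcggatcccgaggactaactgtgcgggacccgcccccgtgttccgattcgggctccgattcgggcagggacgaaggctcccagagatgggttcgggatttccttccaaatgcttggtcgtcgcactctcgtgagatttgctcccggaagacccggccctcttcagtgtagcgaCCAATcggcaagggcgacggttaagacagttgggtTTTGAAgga
Ube2c: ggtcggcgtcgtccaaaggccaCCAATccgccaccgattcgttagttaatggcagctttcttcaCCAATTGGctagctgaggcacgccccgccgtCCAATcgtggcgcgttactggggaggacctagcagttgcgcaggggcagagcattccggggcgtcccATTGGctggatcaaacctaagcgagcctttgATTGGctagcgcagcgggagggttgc
Cenpa: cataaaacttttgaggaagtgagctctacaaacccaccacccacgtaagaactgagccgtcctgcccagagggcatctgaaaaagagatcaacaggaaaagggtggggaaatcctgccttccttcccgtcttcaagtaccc
Top2a held 4 homology region matches and 6 CCAAT boxes in its 250 bases. Ccnb2 held 1 and 3, Cdc20 held 1 and 1, and Ube2c held 0 and 6, including a pair that overlaps in CCAATTGG. The 141 bases shown for Cenpa end 109 bases before its RefSeq start site and held neither motif, which says nothing about the part not shown.

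Transcripts of the 32 genes were concentrated in few cells. To compare cells of unequal depth, each cell was thinned at random to 1000 UMIs, which left out 118 WT and 71 CKO cells that were shallower. After thinning, 86.5% of WT and 84.9% of CKO cells held no UMI of any of the 32 genes, and 11.7% and 12.8% held UMIs of exactly 1. Only 98 WT and 114 CKO cells held UMIs of exactly 2, while 118 and 173 held UMIs of at least 3. The latter cells, with UMIs of at least 3 of the 32 genes after thinning, are called dividing-signature cells here. With all UMIs used, 105 WT and 160 CKO cells carried between 20 and 32 of the genes, against 43 and 45 with 10 to 19, and 16 and 18 cells carried all 32.

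**Figure D1:**
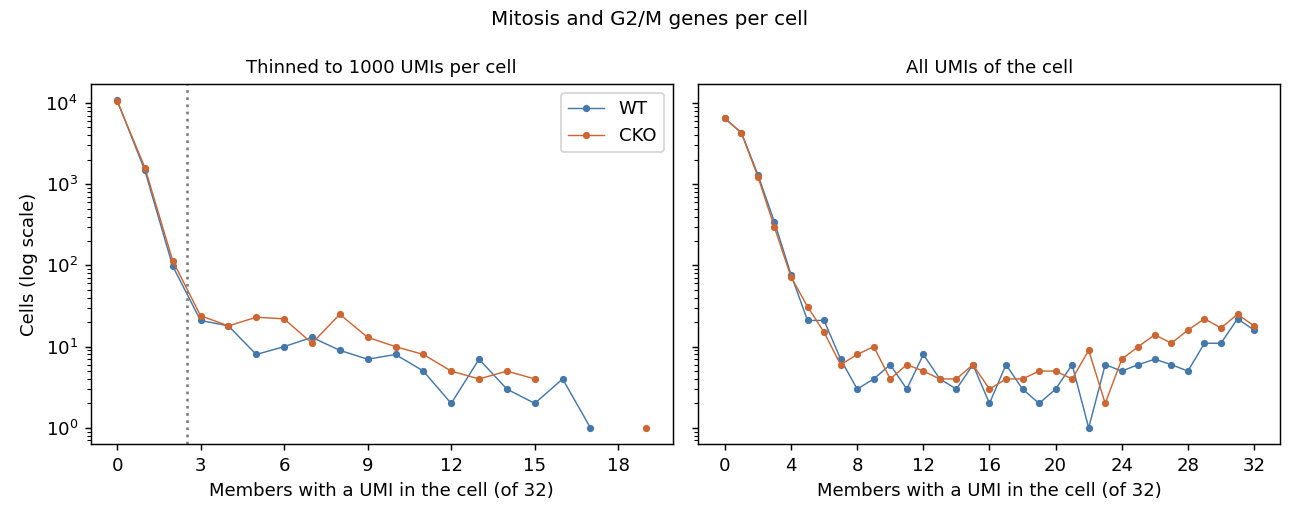
Number of cells (log scale) by the number of the 32 genes with a UMI, after thinning each cell to 1000 UMIs (left, the dotted line marks the limit of 3 genes) and with all UMIs (right), for the WT and the CKO library. With all UMIs the numbers fall to a low at 10 to 19 genes and rise again above 20 genes, where 105 WT and 160 CKO cells lie.

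Detection of 1 gene went with detection of others to a degree that differed between genes. Of 56 WT cells with a thinned UMI of Ube2c, the E2 enzyme of the anaphase-promoting complex, 46 (82.1%) also held another of the 32. For CKO this was 60 of 70 cells (85.7%). Cenpa, the histone H3 variant that marks centromeres, was the other extreme. Of 767 WT and 908 CKO cells with a thinned Cenpa UMI, 12.7% and 12.2% held another member, against 7.83% and 8.45% of cells without a Cenpa UMI. The same comparison for Ube2c was 13.1% and 14.6% of cells without it.

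Hmmr, a spindle-binding protein, had the largest part of its own UMIs in dividing-signature cells, 90.4% in WT and 92.8% in CKO. Ube2c followed in WT with 89.2% and 90.9%, then Plk1, the Polo kinase, with 88.6% and 92.3%, and Cenpf, a kinetochore protein, with 88.3% and 90.9%. The median over the 32 genes was 69.8% in WT and 76.8% in CKO. These shares describe the genes that define the signature, so only their order carries information. At the low end stood Cenpa with 16.7% and 19.4%, Tacc3, a spindle protein, with 34.7% and 42.2%, Kif23, a motor of the central spindle, with 42.0% and 58.5%, and Aurkb, the kinase of the chromosomal passenger complex, with 48.1% and 53.5%.

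**Figure D2:**
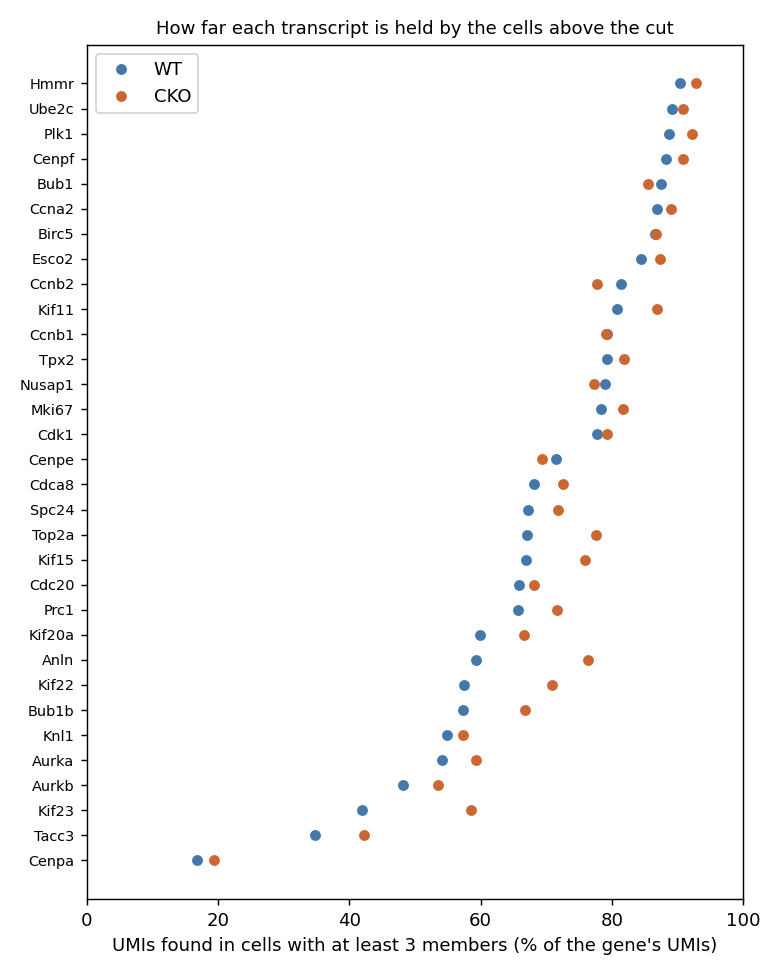
Part of each gene's UMIs that lay in cells with at least 3 of the 32 genes after thinning (horizontal axis, percent of the gene's UMIs in a library), with 1 point for WT and 1 for CKO per gene. Hmmr is highest at 90.4% in WT and Cenpa lowest at 16.7%.

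Outside the dividing-signature cells, Cenpa depended on the class. A thinned Cenpa UMI was present in 7.18% (6.60 to 7.80) of the other WT B-gated cells and 7.63% (7.11 to 8.18) of the CKO ones. In NK-gated cells the share was 2.51% (1.21 to 4.56) in WT and 3.49% (2.40 to 4.89) in CKO. B-gated cells thus lay above NK-gated cells in both libraries with intervals that did not overlap, at 71.0 against 29.9 CPM in WT and 76.5 against 36.5 CPM in CKO. No spleen class is known to lack Cenpa; conventional dendritic cells had the lowest WT share, 2 of 98 cells or 2.04% (0.248 to 7.18). Median depths before thinning were 4642 UMIs in those WT B-gated cells, 4693 in NK-gated cells and 11154 in conventional dendritic cells.

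Kif23 and Aurkb had their own patterns outside the signature. Kif23 stood at 18.1 CPM (15.6 to 20.9) in WT CD8 T-gated cells and at 7.55 CPM (5.98 to 9.41) in WT CD4 T-gated cells, with 4.84 CPM in WT B-gated cells. CKO CD8 T-gated cells, with 15 UMIs, stood at 18.6 CPM (10.4 to 30.6), the level of the WT ones. Aurkb stood at 7.08 CPM (6.28 to 7.94) in WT B-gated cells against 0.382 CPM (0.104 to 0.979) in WT CD4 T-gated cells.

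In all cells together, 0.939% of WT cells (118 of 12561, 0.778 to 1.12) and 1.38% of CKO cells (173 of 12539, 1.18 to 1.60) were dividing-signature cells. The ratio was 1.47 (1.16 to 1.87). Without thinning the shares of cells with at least 3 of the genes were 4.90% and 5.08%. Of the 173 CKO cells, 49.7% were B-gated, 20.2% myeloid, 8.67% NK-gated, 4.05% B precursor and 3.47% T-gated. The 118 WT cells were 28.8% B-gated, 23.7% T-gated, 21.2% myeloid, 11.9% germinal centre B and 1.69% B precursor, with no NK-gated cell. The mix of classes therefore differed, alongside T-gated cells at 29.0% of all WT and 6.12% of all CKO cells.

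Dividing-signature cells were deep, with medians of 20090 WT and 17121 CKO UMIs. A doublet caller, Scrublet, marked 26 of the 118 WT cells and 15 of the 173 CKO cells among its 1394 and 1293 marks. In CKO the summed haemoglobin genes reached 4630 CPM in dividing-signature cells against 17.9 CPM in WT, and most of it lay in the cells with markers of 2 lineages, at 34999 CPM against 0. These cells are outside the classes below.

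**Figure D3:**
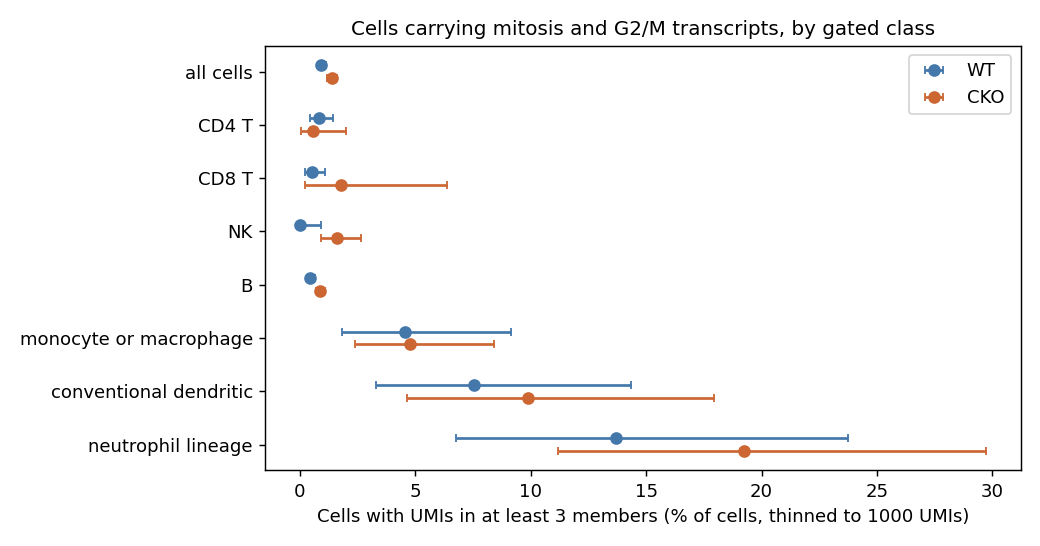
Percent of cells with UMIs of at least 3 of the 32 genes after thinning to 1000 UMIs (horizontal axis), by marker-gated class, with exact 95% binomial intervals as bars, for WT and CKO. B-gated cells stand at 0.459% and 0.885%, NK-gated cells at 0 and 1.61%, and the neutrophil lineage at 13.7% and 19.2%.

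B cells were compared first, as the most numerous class. B-gated dividing-signature cells were 34 of 7400 in WT, 0.459% (0.318 to 0.641), and 86 of 9714 in CKO, 0.885% (0.709 to 1.09), a ratio of 1.93 (1.28 to 2.96). Without thinning, 288 of 7436 WT cells (3.87%) and 404 of 9737 CKO cells (4.15%) held UMIs of at least 3 of the genes, a ratio of 1.07, so the ratio of shares depended on the thinning. With UMIs of at least 10 of the genes and no thinning, the counts were 45 and 93. The 32 genes summed to 281 CPM in WT and 424 CPM in CKO, a ratio of 1.51 (1.48 to 1.54). Among dividing-signature cells alone the sums were 9074 and 9821 CPM, a ratio of 1.08, and among the other B-gated cells 165.5 and 173 CPM, a ratio of 1.04. CKO thus had more such cells, with a summed level in them close to that of WT, and they held 41.9% of the genes' WT and 60.3% of their CKO UMIs. Scrublet marked 11 of these 34 WT cells and 3 of the 86 CKO cells, so the libraries were unlike in marked doublets here.

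By gene, 19 of the 32 were more than 1.5-fold higher in CKO B-gated cells and 0 more than 1.5-fold lower. Over all 13259 genes tested in this class, 4.46% were higher and 3.25% lower by that size. The median log2 ratio of the 32 was 0.55, against 0.04 over all genes tested. A gene counted as tested with at least 20 UMIs in both libraries together, which all 32 passed.

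The genes of the chromosome surface, DNA topology and cohesion were all past 1.5-fold in B-gated cells. Mki67, which coats mitotic chromosomes, stood at 24.4 WT and 49.3 CKO CPM, a ratio of 2.02 (1.88 to 2.18). Top2a, the topoisomerase that untangles sister DNA, stood at 26.0 and 45.5 CPM, a ratio of 1.75 (1.63 to 1.88). Esco2, which acetylates cohesin in S phase, had a ratio of 1.75 (1.41 to 2.19). The intervals of the 3 genes lay above 1.

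Among cyclins and mitotic kinases, 3 of 6 were past 1.5-fold. Ccna2, cyclin A2, stood at 3.05 WT and 6.51 CKO CPM, a ratio of 2.13 (1.73 to 2.63), and Plk1 at 1.92 (1.43 to 2.59) times WT. Ccnb1, cyclin B1, stood at 2.96 and 3.51 CPM, a ratio of 1.19 (0.941 to 1.505), so its difference was within counting error. Spindle genes included 5 of 7 past 1.5-fold, led by Hmmr at 2.13 times and Kif11, the motor that pushes spindle poles apart, at 2.03 times. Of the anaphase-promoting complex genes, Ube2c stood at 6.88 WT and 14.9 CKO CPM, the largest ratio of the 32 at 2.16 (1.89 to 2.48), while Cdc20, the activator of the complex, stood at 1.49 times.

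The 3 smallest ratios in B-gated cells belonged to genes with many UMIs outside the dividing-signature cells. Aurkb had a ratio of 1.02 (0.888 to 1.18), Tacc3 1.08 and Cenpa 1.13 (75.7 to 85.6 CPM). Birc5, survivin, a partner of Aurkb in the chromosomal passenger complex, stood at 1.84 times. With only the cells below 3 genes, 1 of the 32 was higher and 1 lower past 1.5-fold, and the median log2 ratio was 0.01. Over all genes these shares were not computed in those cells.

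Other genes of the same pathways, from lists that hold none of the 32, were also counted in B-gated cells. Of all 13259 genes tested in this class, 4.46% were higher and 3.25% lower by more than 1.5-fold. Of 30 spindle and cytokinesis genes 12 were more than 1.5-fold higher, led by Depdc1b at 3.86 times (10 and 50 UMIs) and Kif2c, a kinesin that removes tubulin from microtubule ends, at 2.65 times. Chromosome condensation and separation genes counted 6 of 20, with Espl1, separase, at 2.41 times, while Pttg1, securin, which holds separase back, stood at 0.715 times (32.6 to 23.3 CPM). Kinetochore and checkpoint genes counted 5 of 30, and regulators 3 of 27, led by E2f8, a repressor of E2F targets, at 2.57 times. S phase genes counted 1 of 29, with a median log2 ratio of 0.18. None of these lists had a gene more than 1.5-fold lower.

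Within each library, the genes outside the 32 with the largest CPM in dividing-signature B-gated cells over other B-gated cells were Kif2c, Hist1h3c, Kif14, Hist1h2af, Hist1h3b, Kif4, Pbk, Spag5, Cdkn3 and Ckap2l, ranked by the smaller of the 2 libraries' ratios. Kif2c stood 400 times higher in WT and 767 times higher in CKO. Histone genes are near-identical copies, so the split of reads among them is uncertain.

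Small B-lineage classes are given as counts. Germinal centre B-gated cells were 23 in WT and 10 in CKO after thinning, of which 14 and 2 were dividing-signature cells. The WT share was 60.9% (38.5 to 80.3), and the CKO interval ran from 2.52% to 55.6%. B precursor-gated cells were 2 and 12, of which 2 and 7 carried the signature. Plasma cell-gated ones were 2 of 24 and 1 of 19. With these classes added to the B-gated cells, the 32 genes summed to 361 and 480 CPM, a ratio of 1.33 (1.30 to 1.35), with 5 genes higher and 0 lower past 1.5-fold, against 4.38% and 3.58% of 13336 genes.

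NK cells had a larger ratio of the summed level than T, B or myeloid cells. None of 399 WT NK-gated cells was a dividing-signature cell, an exact interval of 0 to 0.920%, and 15 of 933 CKO cells were, 1.61% (0.903 to 2.64), so the intervals of the shares overlapped slightly. Set against a floor of 3 cells, 0.752% of the WT cells, the CKO share was 2.14 times as high. That value is no lower bound, since the exact interval of the ratio began at 1.53. With at least 10 genes and no thinning the counts were 1 and 17. The 32 genes summed to 147 WT and 784 CKO CPM, a ratio of 5.33 (4.74 to 6.02), while in the other NK-gated cells they summed to 147 and 152 CPM, a ratio of 1.04 (0.902 to 1.19).

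In NK-gated cells 31 of the 32 genes reached 20 UMIs, and Aurka, at 1 and 18, did not. Of the 31, 21 had at most 6 WT UMIs and reached the minimum only through CKO, so they could come out only as higher, and 3 of them had no WT UMI. The 31 were more than 1.5-fold higher in CKO and 0 lower, where 6.28% and 4.77% of the 9818 genes tested were, and because of that filter the count is not read against these shares. Mki67 rested on 35 WT and 462 CKO UMIs, 17.1 and 103 CPM, a ratio of 6.00 (4.25 to 8.72). Top2a rested on 54 and 510 UMIs, 26.4 and 113 CPM, a ratio of 4.29 (3.24 to 5.79). Cenpa was lowest at 1.74 times (1.31 to 2.34), followed by Kif23 at 1.79 times (0.979 to 3.48).

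WT counts were too low for a close ratio elsewhere in this class. Ube2c had 4 WT and 138 CKO UMIs, 15.7 times (5.99 to 58.4), and Kif15, a spindle motor, had 2 and 96, 21.8 times (5.88 to 183). Birc5 had 1 and 166 UMIs, with an interval of 13.4 to 2998. Hmmr, Bub1, a checkpoint kinase, and Esco2 were at 0 in WT. Set against a floor of 3 WT counts over the class, they stood at 10.1, 3.33 and 10.3 times. These values rest on the floor and are not lower bounds.

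The signal was spread over the 15 CKO cells. Mki67 ranged from 3 to 43 UMIs with a median of 29, and Top2a from 0 to 48 with a median of 33. The cell richest in the 32 genes held 9.52% of their CKO UMIs in the class. Summed NK markers stood at 13005 CPM in these cells, T markers at 1027 CPM, against 6862 CPM in WT T-gated dividing-signature cells, and B markers at 89.7 CPM. Ccnb1 was seen in 6 of the 15 cells, and late genes made up 18.6% (17.2 to 20.1) of their counts of the 32. Late genes are Ccnb1, Ccnb2, Cdc20, Plk1, Aurka, Cenpa, Cenpe, Cenpf, Hmmr and Kif20a, whose transcripts are known to peak near mitosis.

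Outside the 32, 17 of 24 tested spindle and cytokinesis genes were higher in NK-gated cells, 11 of 19 condensation and separation genes, 12 of 24 kinetochore and checkpoint genes and 12 of 24 regulators, where 6.28% of all genes were. Of these tested genes 12, 4, 8 and 7 reached 20 UMIs only through CKO and could come out only as higher, such as E2f8 at 1 and 37 UMIs and Cep55, a protein of the last step of cytokinesis, at 1 and 36, so the counts support nothing further. More than 1.5-fold lower, as 4.77% of all genes were, stood 1 gene in each of the last 3 lists: Pttg1, Cenph, a kinetochore protein, at 0.454 times (23 and 23 UMIs) and Lin54, of the DREAM complex, at 0.621 times. S phase genes counted 8 higher and 0 lower of 28, of which 3 passed only through CKO, with Rrm2, a subunit of ribonucleotide reductase, at 6.56 times (7 and 101 UMIs) and Mcm3, of the replicative helicase, at 0.806 times. Pttg1 stood at 0.636 times (51.3 to 32.6 CPM).

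T cells went the other way in the sum, and unevenly by gene. The share of dividing-signature cells was 28 of 3673 in WT, 0.762% (0.507 to 1.10), and 6 of 772 in CKO, 0.777% (0.286 to 1.68), a ratio of 1.02 (0.345 to 2.51) that leaves any difference of that range undetected. The 32 genes summed to 369 WT and 261 CKO CPM, a ratio of 0.709 (0.669 to 0.752). Of the 32, 15 were more than 1.5-fold lower and 1 higher, against 6.17% lower and 7.51% higher of 11810 genes tested. The 1 higher gene, Anln, the cytokinetic ring protein anillin, had 58 and 17 UMIs, 1.60 times (0.872 to 2.78), and no gene was higher without the cell richest in the 32 in each library.

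Cyclins and mitotic kinases were lower in T-gated cells, 6 of 6. Ccnb1 had 112 WT UMIs in 30 cells and 1 CKO UMI in 1 cell, 4.18 and 0.203 CPM, a ratio of 0.049 (0.0012 to 0.277). It reached the count minimum through its WT UMIs, so its place among the 6 is not read as support. Ccnb2, cyclin B2, stood at 8.55 and 3.05 CPM, 0.357 times (0.197 to 0.601), Plk1 at 0.347 times and Cdk1, the kinase that cyclin B activates, at 0.612 times. Both anaphase-promoting complex genes were lower, Ube2c at 17.8 and 5.09 CPM, 0.286 times (0.183 to 0.428), and Cdc20 at 0.576 times.

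Kinetochore genes were mixed. Cenpf stood at 15.4 and 3.05 CPM, 0.198 times (0.110 to 0.331), and Cenpe, a kinetochore motor, at 0.509 times, while Spc24, of the NDC80 complex, stood at 8.14 CPM in both, with an interval of the ratio from 0.695 to 1.41. None of the 3 chromosomal passenger genes and none of the 3 genes of chromosome surface, topology and cohesion was past 1.5-fold. Top2a stood at 40.6 and 40.5 CPM, a ratio of 0.998 (0.853 to 1.16), Aurkb at 0.995 (0.576 to 1.63) and Esco2 at 1.35 (0.793 to 2.19). Mki67 stood at 37.3 and 29.9 CPM, 0.801 times (0.669 to 0.953).

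These T-gated values rest on few cells. The 6 CKO cells held 61.6% of the class's CKO UMIs of the 32 genes, and 1 of them held 18.6%. Without the cell richest in the 32 in each library the summed ratio was 0.632. The 6 cells had 52 to 239 UMIs of the 32 genes, median 122.5, and the 28 WT cells 5 to 845, median 196. Ccnb1 was seen in 20 of the 28 WT cells, with up to 21 UMIs, and in 1 of the 6 CKO cells. Top2a was seen in 25 of 28, median 25, and in 5 of 6, median 24, so its levels overlapped. Marker sums differed between the libraries here, and NK markers did not move in 1 direction across the T-gated classes. In dividing-signature T-gated cells the summed T markers stood at 6862 WT and 4684 CKO CPM and the summed NK markers at 790 and 1981 CPM, with CD8 T-gated ones at 2392 and 4825 CPM and CD4 T-gated ones at 339 and 104 CPM of NK markers. Their part in the T-gated values was not tested.

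Late genes made up 26.0% (25.0 to 27.1) of the 32 genes' UMIs in the 28 WT cells and 15.4% (12.96 to 18.1) in the 6 CKO cells. Per cell the WT share ran from 0 to 54.5% with a median of 22.5%. In CKO, 5 cells lay between 5.10% and 19.2% and the other at 51.9%, inside the WT range. S phase genes summed to 3831 WT and 6063 CKO CPM in these cells. That count is 2 to 189 UMIs per WT cell, median 75, and 5 to 146 per CKO cell, median 103.5, so the groups overlapped there too. With the limit raised to 5 genes, 4 CKO cells remained, at 18.99% late.

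**Figure D4:**
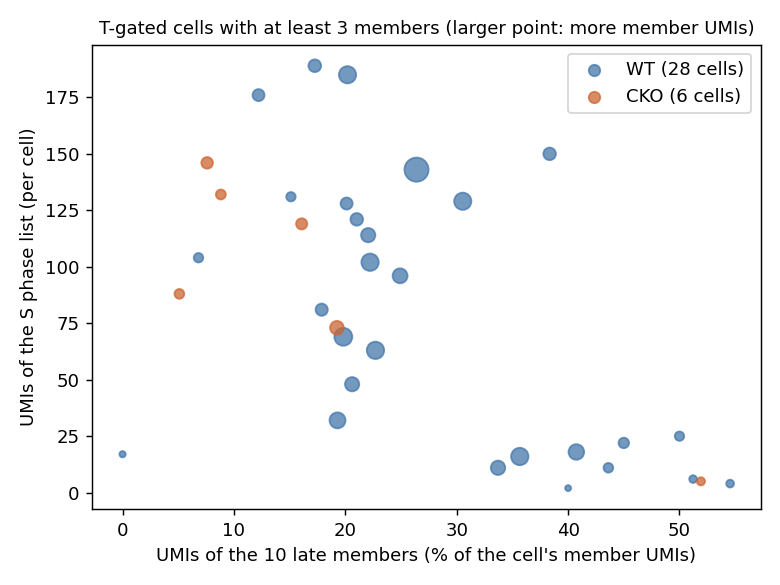
T-gated cells with at least 3 of the 32 genes, 1 point per cell, 28 from WT and 6 from CKO. The horizontal axis is the late genes' percent of the cell's UMIs of the 32 genes and the vertical axis its UMIs of S phase list genes. Of the CKO cells, 5 lie at 5.10% to 19.2% late and the other at 51.9%, all within the spread of the WT cells.

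Other list genes of T-gated cells were counted in the same way, where 7.51% of all 11810 genes tested were higher and 6.17% lower. Of 29 S phase genes 5 were more than 1.5-fold higher and 1 lower, led by Cdc6, a replication licensing factor, at 1.89 times (49 and 17 UMIs). Regulators counted 3 higher and 3 lower of 27. Among them Cdkn1a, the p21 inhibitor of cyclin-dependent kinases, had 25 WT and 55 CKO UMIs, 11.99 times (7.35 to 20.1), with 50.9% of the CKO UMIs in 1 cell, and E2f1 stood at 2.36 times. Kinetochore and checkpoint genes counted 1 higher and 3 lower of 30, spindle and cytokinesis genes 2 and 2 of 29, and condensation and separation genes 1 and 1 of 20. Among these genes 1 regulator reached 20 UMIs only through CKO and could come out only as higher. Another 1 regulator, 1 kinetochore and 3 spindle genes did so only through WT and are not read as support for a lower level. The genes most tied to T-gated dividing-signature cells in both libraries, led by Hist1h3c and Hist1h2af, included 9 replication-dependent histone genes and Pclaf, a PCNA-binding protein. A gene needed at least 20 UMIs in those cells of each library, here only 6 CKO cells. Kif2c, first in the B-gated ranking, had 3 CKO UMIs in all T-gated cells and could not enter, so the 2 rankings are not comparable.

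Split by co-receptor, CD4 T-gated cells summed to 451 WT and 254 CKO CPM of the 32 genes, a ratio of 0.563 (0.514 to 0.615), with 25 genes lower and 0 higher, against 9.36% and 6.19% of 10530 genes. Of the 32, 2 reached 20 UMIs only through WT and are not read as support for a lower level. Dividing-signature cells were 13 of 1562 and 2 of 356, and 1 CKO cell held 43.8% of the UMIs. CD8 T-gated cells summed to 202 and 379 CPM, a ratio of 1.88 (1.67 to 2.12), with 20 higher and 2 lower of 29 tested, against 14.4% and 9.71% of 10203 genes. Of the 29, 3 reached 20 UMIs only through CKO and could come out only as higher. Only 7 of 1295 and 2 of 111 cells carried the signature there, 1 CKO cell held 49.7% of the UMIs, and without the richest cell of each library the ratio was 1.20. No γδ T-gated cell, of 31 WT and 93 CKO, carried the signature, with exact intervals that reach 11.2% and 3.89%, or floors of 3 cells at 9.68% and 3.23%. The T-gated cells in none of these classes summed to 542 WT and 252 CKO CPM, a ratio of 0.465 (0.412 to 0.522). Of them, 8 of 785 WT and 2 of 212 CKO cells carried the signature.

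Myeloid-gated cells had larger shares of dividing-signature cells than T-, NK- or B-gated cells. They were 25 of 333 in WT, 7.51% (4.92 to 10.9), and 35 of 399 in CKO, 8.77% (6.19 to 11.99), a ratio of 1.17 (0.680 to 2.04). Only Kif20a, a motor of the central spindle, was past 1.5-fold, at 1.52 times (0.974 to 2.40), and 0 genes were lower, against 5.48% and 5.04% of 10361 genes. Mki67 stood at 196 and 212 CPM, 1.08 times (0.979 to 1.19), and Top2a at 149 and 204 CPM, 1.37 times (1.23 to 1.53). With Scrublet-marked cells left out, which took 12 of the 25 WT and 7 of the 35 CKO cells, 26 of the 32 genes were past 1.5-fold higher. The share over all genes was not computed without those cells, so this count is not read as a difference.

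The myeloid subclasses differed. The neutrophil lineage, which includes granule-forming precursors, had 10 of 73 and 15 of 78 dividing-signature cells, 13.7% (6.77 to 23.8) and 19.2% (11.2 to 29.7), and its genes summed to 1634 and 2241 CPM, a ratio of 1.37, or 2.09 with Scrublet-marked cells left out. There 15 of the 32 were higher and 0 lower, against 22.9% and 7.05% of 6612 genes. Conventional dendritic cells had 8 of 106 and 9 of 91, 1175 and 1935 CPM. There 19 were higher and 0 lower, against 10.4% and 6.43% of 8191 genes, and 1 of the 32 likewise passed only through CKO. Monocytes or macrophages had 7 of 154 and 11 of 230, 1426 and 1188 CPM, a ratio of 0.833 that became 1.10 without Scrublet-marked cells, with 3 higher and 6 lower against 5.73% and 6.51% of 8706 genes.

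Other list genes in myeloid cells counted 5 higher and 1 lower of 27 regulators, 6 and 1 of 30 kinetochore and checkpoint genes, 5 and 1 of 29 spindle and cytokinesis genes, 0 and 0 of 20 condensation and separation genes and 4 and 0 of 29 S phase genes. Of all 10361 genes tested in myeloid cells, 5.48% were higher and 5.04% lower by more than 1.5-fold. Among the list genes, 1 kinetochore and 1 spindle gene reached 20 UMIs only through CKO, and 2 spindle genes only through WT. Late genes made up 19.3% (18.1 to 20.5) of the UMIs of the 32 in WT and 22.0% (20.9 to 23.0) in CKO myeloid dividing-signature cells. In B-gated ones the values were 25.0% (23.8 to 26.3) and 22.7% (22.0 to 23.4). Smaller classes moved either way. The CKO minus WT difference was -3.19 percentage points in conventional dendritic cells, -8.52 in CD4 T-gated and -10.9 in CD8 T-gated cells. It was 0.054 in the neutrophil lineage and 7.08 in germinal centre B-gated cells. In monocytes or macrophages the late share was 16.8% (15.1 to 18.6) in 7 WT cells and 27.2% (25.3 to 29.2) in 11 CKO cells, a CKO minus WT difference of 10.4 percentage points, where T-gated cells had -10.6. Per cell it ran from 9.63% to 36.4% in WT and from 4.65% to 52.1% in CKO, so the cells overlapped. In B precursor-gated cells it was 8.05% (4.23 to 13.6) in 2 WT cells and 27.1% (25.3 to 29.0) in 7 CKO cells.

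Over all cells, 8 of the 32 genes were more than 1.5-fold higher in CKO and 0 lower, against 8.47% and 7.41% of 15163 genes, with ratios from 1.09 to 1.59 and a median log2 ratio of 0.38. Within the dividing-signature cells alone, pooled over classes, Anln had the largest ratio at 1.32 (1.08 to 1.62). Ccnb1 had the smallest at 0.772 (0.660 to 0.903), and Cenpf at 1.03 and Hmmr at 1.05 stood close to 1. Other genes had intervals off 1 in either direction, such as Top2a at 1.15 (1.10 to 1.21) and Cdc20 at 0.775 (0.678 to 0.887). The summed level of the 32 there was 9218 CPM in WT and 9207 CPM in CKO.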

How the data were processed

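The authors deposited 1 matrix of whole UMI counts per library, not normalized; the deposited matrix header names Cell Ranger 6.0.2, and the submitters' processing notes name mm10, Cell Ranger 5.0.0 and Seurat 4.0.3. Cell annotations of the authors were not used here. Cells with 200 to 6000 genes and under 10% mitochondrial UMIs were kept. A cell entered a class with at least 3 markers of its list including a defining one, unless another lineage reached 0.5 of the best list's share; class names were rebuilt from counts and can differ from the study's. T classes needed 2 T receptor complex UMIs, and germinal centre and precursor B classes 3 of their own markers. Doublets were handled by that rule, and Scrublet (scanpy 1.11.5, expected rate 0.8% per 1000 cells) marked cells for an alternative only. CPM, Clopper-Pearson intervals for shares, Poisson intervals for CPM and conditional binomial intervals for ratios were computed with Python 3.11.15, numpy 2.4.6, scipy 1.17.1 and pandas 2.3.3 from the deposited counts. A count of 0 was set against a floor of 3 counts. The log2 ratios use a pseudocount of 1 CPM, which understates changes of low genes, and 20 summed UMIs were required. Genes outside the 32 were named only from fixed lists, at most the 3 highest and 3 lowest by ratio in a class, or as the 10 most tied to dividing-signature cells. The 32 genes and the lists were chosen with earlier results of these data known. Calculations were checked on simulated counts. Alternatives changed the cell filter, doublets, limit, thinning, gates, pseudocount, count minimum and the richest cell.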

Additional observations from a re-analysis of the deposited data

Results flagged for a closer look

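The summed level of the 32 genes was lower in CKO than in WT in T-gated cells, at 0.709 times, and higher in B-gated cells, at 1.51 times. The opposite directions in these classes are why both values are listed here. The difference between the classes was not tested, since each class comes from the same pair of libraries. The T-gated classes did not share 1 direction: the ratio was 0.563 in CD4 and 1.88 in CD8 T-gated cells. The CD8 value rested on 2 CKO dividing-signature cells, and 1 CKO cell held 49.7% of the UMIs. In γδ T-gated cells, with 26 WT and 104 CKO UMIs, the ratio was 1.06 (0.686 to 1.70), which shows no direction. The remaining T-gated cells stood at 0.465. In T-gated cells 1 CKO cell held 18.6% of the UMIs of the 32 genes, against 1.69% for the richest B-gated CKO cell.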

How the results depend on the processing

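Across 16 alternative settings, 325 values were recomputed: 276 counted as kept, 47 as moved and 2 as reversed. Kept means inside the main interval for ratios and late shares, or within 1.5-fold for gene counts and medians. Reversal was counted only for ratios whose main interval excluded 1 and for medians past 1.5-fold. Other ratios could cross 1 and count as kept, such as the T-gated share without thinning, 3.86% in WT and 3.11% in CKO. For the moved and reversed values, where no construction of the setting shows it, the cause was not tested. Without the cell filter, the summed ratios were 0.663 in T, 0.639 in monocytes or macrophages and 1.20 in the neutrophil lineage, 0 genes were higher in myeloid cells and the WT myeloid late share was 20.9%. A stricter filter gave ratios of 0.727 in CD4 T, 1.19 in CD8 T, 0.917 in monocytes or macrophages and 1.88 in conventional dendritic cells, 7 genes higher in myeloid cells, and late shares of 23.0% in all CKO, 17.3% in WT myeloid and 24.8% in CKO myeloid cells. Leaving out Scrublet-marked cells gave ratios of 0.653 in T, 1.75 in B, 2.23 in conventional dendritic cells and 2.09 in the neutrophil lineage, reversed monocytes or macrophages to 1.10, and gave 0 genes higher in T, 26 higher in myeloid cells and late shares of 24.9% in all WT and 22.7% in all CKO cells. A limit of 2 genes gave a B share ratio of 1.28, and a limit of 5 genes a CKO T late share of 18.99%. No thinning gave share ratios of 1.04 in all cells and 1.07 in B. A looser gate gave 1.45 in conventional dendritic cells, and a stricter one 1.46 in the neutrophil lineage and 2 genes higher in myeloid cells. Without the richest cell the ratios were 0.632 in T, 0.384 in CD4 T, 1.20 in CD8 T, 1.55 in B and 0.936 in monocytes or macrophages, with 0 genes higher in T and 3 in myeloid cells. A pseudocount of 5 CPM gave an NK median log2 ratio of 1.62. Chosen after seeing the data, leaving out Cenpa gave ratios of 2.16 in CD8 T, 6.26 in NK and 1.65 in B. Also chosen afterwards, cells below 3 genes gave 2 genes higher and 8 lower in T, 3 higher and 1 lower in NK with a reversed median log2 ratio of -0.071, 1 higher and 1 lower in B, and 7 higher and 2 lower in myeloid cells. By construction that setting removes the cells that hold most of these UMIs. Under these settings only the 32 genes were counted, so the gene counts have no share over all genes beside them. No paired analysis was possible because there is 1 library per genotype. The number of dividing-signature cells limits these values: the richest CKO cell held 18.6% of the class's UMIs of the 32 genes in T, 43.8% in germinal centre B and 90.2% in plasma cells.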
